A study of Mus musculus with 12 samples.

Results

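Inward rectifier potassium channels (Kir, genes Kcnj) were examined together with the sulfonylurea receptors (SUR, genes Abcc8 and Abcc9) in mouse dorsal root ganglia, which hold the cell bodies of the sensory neurons of the body. The set held 10 of the 55416 genes in the count tables, listed by name: the KATP pore genes Kcnj11 and Kcnj8, their receptor partners Abcc8 and Abcc9, the Kir2 genes Kcnj2, Kcnj4 and Kcnj12, and the Kir3 genes Kcnj3, Kcnj6 and Kcnj9. The list is a list of names, but it was selected on these libraries: values of the inducible knockout (iKO) and control libraries were known when it was made. The values of its members in that comparison are therefore given as a description, without p-values. All 10 passed the filter on low counts, with 15 to 906 counts per gene and library.

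The 12 libraries came from adult C57Bl6 mice. The 6 iKO libraries, 3 female and 3 male, carried Rosa26Cre ERT2, a Cre recombinase switched on by tamoxifen in cells of all types, with both Prdm12 alleles floxed (Fl/Fl), and were collected 1 month after tamoxifen. Among the controls, control 1 (female) had Rosa26Cre ERT2 with Fl/+, controls 2 (female) and 3 (male) were +/+; Fl/+, and control 4 (male) was Rosa26Cre ERT2; +/+. These 4 received tamoxifen and were collected 1 month after it. Controls 5 and 6, both male, had the iKO genotype (Rosa26Cre ERT2; Fl/Fl) and received corn oil, with no time after injection given. Agent, genotype, library number and any difference in time cannot be told apart for them. Whether each library is from 1 animal is not stated in the labels, and the p-values then measure only the spread between samples, which may be technical.

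KATP channels are built from a Kir6 pore ringed by sulfonylurea receptors, one for each pore subunit. ATP closes them and MgADP opens them, which ties membrane voltage to the energy state of the cell. Kir6.2 with SUR1 (Kcnj11 with Abcc8) is the form known from neurons and pancreatic beta cells, and Kir6.1 with SUR2 (Kcnj8 with Abcc9) is the form of pericytes and vascular smooth muscle. Kir2 channels hold cells near the potassium equilibrium potential, and Kir3 (GIRK) channels open when Gi/o-coupled receptors, such as opioid and GABA-B receptors, release G protein βγ subunits. In sensory neurons an open Kir or KATP channel opposes firing.

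Library totals ran from 13943784 to 20377766 counts. Prdm12 was at 64.6 to 147 CPM (counts scaled to a library of fixed size) in controls and 18.6 to 25.4 CPM in iKO libraries, without overlap. The labelled tissue was checked with 12 sensory neuron markers, all of which were tested, and their summed level was 13474 to 17700 CPM in controls. The iKO 1 library stood apart. Its sensory neuron markers summed to 11986 CPM against 15716 to 17332 CPM in the other iKO libraries, while fibroblast markers summed to 3927 CPM (1418 to 1635 in the others), endothelial markers to 388 CPM (150 to 186) and macrophage markers to 322 CPM (113 to 135). Values that rest on this library are given with and without it.

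Both genes of the neuronal KATP channel were lower in iKO ganglia, whereas both genes of the vascular form overlapped between the groups. Kcnj11, the Kir6.2 pore, had a lowest value of 5.22, a median of 5.74 and a highest value of 6.91 CPM in controls. In iKO libraries the lowest, median and highest values were 2.45, 3.47 and 4.67 CPM. Every iKO library was thus below every control, iKO 6 being the nearest. The means were 5.90 ± 0.706 and 3.49 ± 0.791 CPM (SD, n = 6 each), the iKO mean being 59.2% of the control mean, with a fitted log2 fold change of -0.75 ± 0.16 (SE). In bulk tissue, fewer cells that express a gene and less RNA per cell cannot be told apart.

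Abcc8, which encodes SUR1, followed the same order with a smaller difference. Its lowest, median and highest values were 14.2, 16.0 and 18.7 CPM in controls. They were 9.78, 12.6 and 13.9 CPM in iKO libraries, so again no library of either group lay within the range of the other. The closest libraries were control 4 and iKO 3. Means were 16.1 ± 1.49 and 12.1 ± 1.62 CPM (SD, n = 6 each), or 75.1% of control, with a log2 fold change of -0.41 ± 0.10 (SE). Without iKO 1, the lowest for this gene, it was -0.36 ± 0.09 (SE), and that of Kcnj11 was -0.72 ± 0.15 (SE).

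Kcnj11 and Abcc8 lie next to each other on chromosome 7, on the same strand, with 0 protein-coding genes between them in the GRCm38 annotation, and Kcnj8 and Abcc9 form a like pair on chromosome 6. Kcnj11 and Abcc8 share 0 exon bases with other annotated genes, so their counts hold no reads from a gene on the opposite strand in that annotation.

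**Figure D1:**
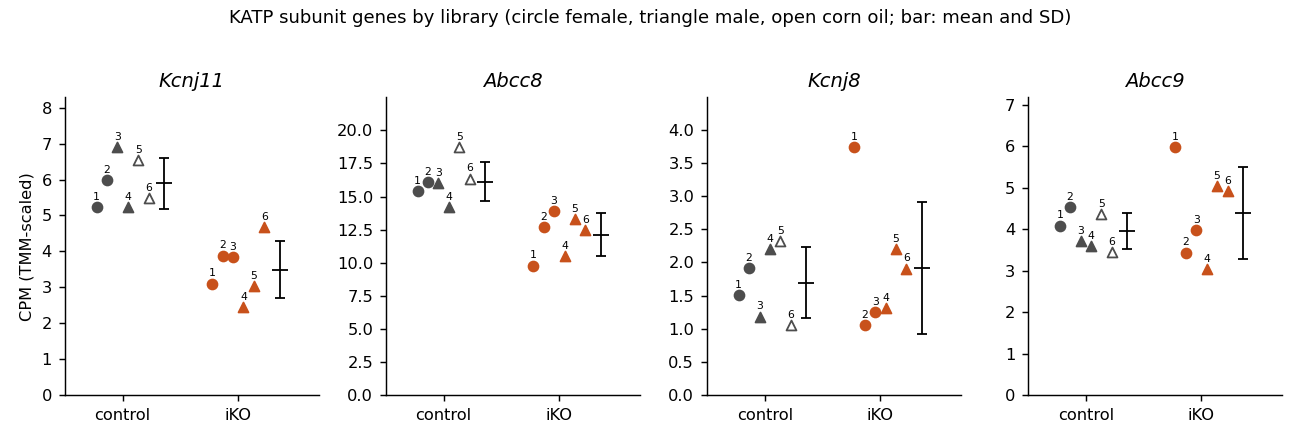
Each panel plots 1 KATP subunit gene, with TMM-scaled CPM on the vertical axis and the 12 libraries, numbered by replicate, in 2 groups. Circles are female, triangles male, open symbols corn-oil controls, and bars give mean and SD. All 6 iKO libraries lie below all 6 controls for Kcnj11 and Abcc8, while for Kcnj8 and Abcc9 the groups overlap and iKO 1 is the highest library.

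Kcnj8, the Kir6.1 pore, had lowest, median and highest values of 1.05, 1.71 and 2.32 CPM in controls. In iKO libraries these were 1.05, 1.61 and 3.74 CPM, and the groups overlapped almost fully apart from iKO 1. The fold change followed that library: it was 0.16 ± 0.32 (SE) on the log2 scale with all libraries and -0.12 ± 0.25 (SE) without iKO 1. Abcc9, which encodes SUR2, was at 3.45, 3.90 and 4.54 CPM (lowest, median, highest) in controls. In iKO libraries it was at 3.04, 4.45 and 5.99 CPM, with iKO 1 the highest and iKO 4 the lowest. Its log2 fold change was 0.14 ± 0.17 (SE), and 0.05 ± 0.15 (SE) without iKO 1. It was -0.04 within replicates 1 to 4 and 0.36 within replicates 5 and 6.

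Among the iKO libraries, marker sums of the vessel wall were highest in iKO 1, as were these 2 genes. The 8 pericyte and mural markers other than Kcnj8 and Abcc9 summed to 451 CPM in iKO 1 and to 341 to 361 CPM in the other iKO libraries, against 371 to 453 CPM in controls. The sum in iKO 1 was thus within the control range, and those of iKO 2 to 6 were below it. Abcc9 in iKO 5 and 6, at 5.03 and 4.92 CPM (80 counts in each), was above every control (highest 4.54 CPM). Of the 8 markers, 5 had positive and 3 negative fold changes, and the median log2 fold change was 0.08. Of them 0 were called (adjusted p under 0.05 by edgeR over all genes), where 0.946% of all genes were. The vascular smooth muscle markers summed to 128 CPM in iKO 1, to 42.0 to 57.1 CPM in the other iKO libraries and to 47.3 to 102 CPM in controls. In these lists 0 markers were at 0 in every library. Their part in the Kcnj8 and Abcc9 values was not tested.

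Set per kilobase of exon, the receptor genes were in the range of their pore genes. In controls Abcc8 was at 1.99 ± 0.185 and Kcnj11 at 1.60 ± 0.192 CPM per kb, a ratio of 1.25 ± 0.111 (SD, n = 6). In iKO libraries the levels were 1.50 ± 0.200 and 0.950 ± 0.215 CPM per kb and the ratio 1.62 ± 0.307, ranging from 1.21 to 2.00 against 1.05 to 1.35 in controls. The ranges of this ratio overlapped. Kcnj11 stood at 2.64 ± 0.971 times Kcnj8 per kb in controls (1.65 to 4.05) and 1.53 ± 0.741 times in iKO libraries. Here iKO 1 was at 0.574 and the other iKO libraries at 0.950 to 2.55, so the groups overlapped. Abcc8 stood at 4.24 ± 0.446 times Abcc9 per kb in controls (3.66 to 4.90) and 3.01 ± 0.813 times in iKO libraries (1.69 to 3.82). The highest iKO and the lowest control library overlapped. The lowest iKO value was that of iKO 1, and the other iKO libraries were at 2.63 to 3.82. Exon lengths came from the older annotation, so these are approximate levels per length.

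The 3 Kir2 genes, which set the resting inward rectification of many cells, had positive fold changes and overlapping groups. Kcnj12 (Kir2.2) was at 30.1, 33.8 and 37.6 CPM (lowest, median, highest) in controls and 28.3, 37.0 and 42.1 CPM in iKO libraries, with iKO 1 the lowest of all 12. Its log2 fold change was 0.13 ± 0.09 (SE), 0.18 ± 0.07 (SE) without iKO 1 and 0.07 without iKO 3. Kcnj4 (Kir2.3) was at 3.76, 5.23 and 6.23 CPM in controls and at 4.83, 6.13 and 6.98 CPM in the iKO libraries, a log2 fold change of 0.21 ± 0.15 (SE), with 0.12 without control 2 and 0.13 without iKO 5. Here 4 of 6 iKO libraries were above the control median. Kcnj2 (Kir2.1) was at 6.68, 8.17 and 13.0 CPM in controls and at 8.05, 10.4 and 13.3 CPM in the iKO libraries (0.16 ± 0.17 SE), with iKO 1 the highest of all 12. Its log2 fold change was 0.09 ± 0.16 (SE) without iKO 1 and 0.30 without control 6. The 2 corn-oil controls held the lowest and the highest control value of Kcnj2, and against these controls alone its fold change was -0.13. With sex as a term and both controls male, that fit compares them (9.82 ± 4.43 CPM) with the 3 male iKO libraries (9.04 ± 1.66 CPM). The mean of all 6 iKO libraries was 10.2 CPM.

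Among the Kir3 genes, Kcnj3 and Kcnj6 had their lowest value in iKO 1. Kcnj3 encodes GIRK1, the subunit common to most neuronal GIRK channels. Controls lay close together, with a lowest value of 36.2, a median of 38.2 and a highest of 38.9 CPM. In iKO libraries the values were 28.0, 43.9 and 49.4 CPM, the lowest being iKO 1. The other 5 iKO libraries, at 40.8 CPM or more, were all above every control, and iKO 1 was below every control. The log2 fold change was 0.18 ± 0.10 (SE) with all libraries and 0.26 ± 0.06 (SE) without iKO 1. Of the exon bases of Kcnj3, 31.1% also belong to Gm26794 on the other strand in the GRCm38 annotation. That gene is not in the tables, and in these unstranded libraries reads of the 2 genes cannot be told apart.

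Kcnj6 (GIRK2), the subunit that can form channels on its own, was near the lower end of what these libraries measure. Control 1 had 3.27 CPM (52 counts) and the other 5 controls 1.31 to 1.48 CPM. The iKO libraries had 0.802, 1.54 and 2.19 CPM (lowest, median, highest), iKO 1 being lowest with 15 counts. The log2 fold change of -0.23 ± 0.27 (SE) rested on control 1 and iKO 1: it was 0.10 without the first and -0.09 without the second. Kcnj9 (GIRK3) was at 1.06, 1.90 and 3.05 CPM in controls, and at 1.35, 1.82 and 2.52 CPM in the iKO libraries, with a log2 fold change of -0.06 ± 0.24 (SE). The corn-oil controls were the 2 highest controls for Kcnj9. Against them its fold change was -0.56, and against the tamoxifen-injected controls 0.23. The first rests on the 3 male iKO libraries, since both corn-oil controls are male and sex was a term. These libraries also enter the second. Kcnj6 shares 4.98% of its exon bases with Gm41505 (5 to 13 counts per library) and Kcnj9 shares 4.01% with Gm36937 (0 to 1 count), both on the opposite strand.

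**Figure D2:**
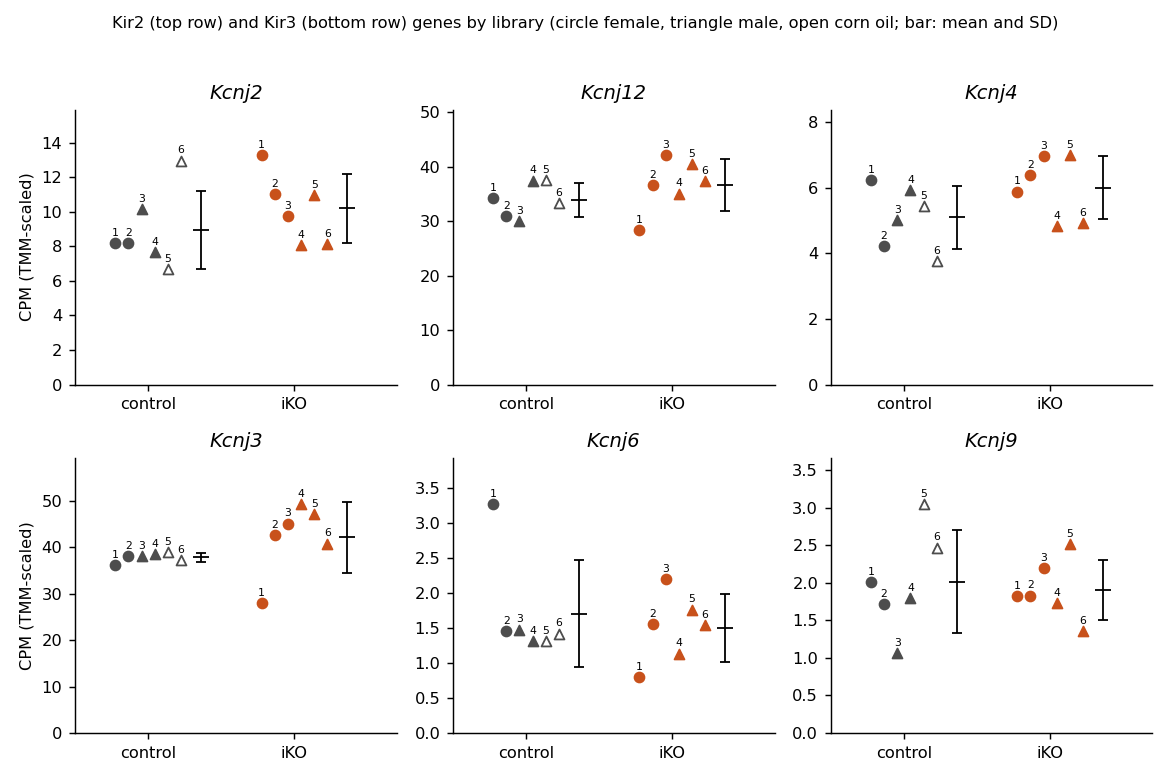
Each panel plots 1 gene, Kir2 genes above and Kir3 genes below, with TMM-scaled CPM on the vertical axis, libraries numbered by replicate, symbols for sex and agent (circle female, triangle male, open corn oil) and bars for mean and SD. Control 1 stands apart for Kcnj6 at 3.27 CPM, and iKO 1 is the lowest library for Kcnj3 and Kcnj12.

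Across the 10 genes, 6 had positive and 4 negative fold changes, with a median of 0.13 on the log2 scale against 0.00 over all 16384 genes tested. Kcnj11 was the 1 member past an adjusted p of 0.05 by the edgeR quasi-likelihood test, 10% of the members, where 0.946% of all genes tested were called (0.409% lower and 0.537% higher, and 9.52% at an unadjusted p under 0.05). Groups did not overlap for 2 of 10 members, both lower in iKO libraries, against 1.54% of all genes (0.665% lower, 0.879% higher). Since this contrast was known when the list was made, nothing is read from these shares. Without iKO 1, Abcc8 and Kcnj3 were called as well as Kcnj11, and these 3 were also the members without overlap. The share of all genes called was then 2.21% (1.2% higher, 1.01% lower), and 2.92% did not overlap. The Kcnj11 call was lost in 8 of the 12 analyses that left out 1 library, whose log2 fold changes ran from -0.89 to -0.64: without control 1, 2, 3 or 5 or iKO 2, 3, 4 or 5. It was also lost against the tamoxifen-injected controls alone (-0.73 ± 0.18 SE), where 235 genes were called against 155 in the main fit. Against the corn-oil controls alone (-0.83 ± 0.27 SE), where 1 gene was called, it was lost as well. Why these calls were lost was not tested.

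**Figure D3:**
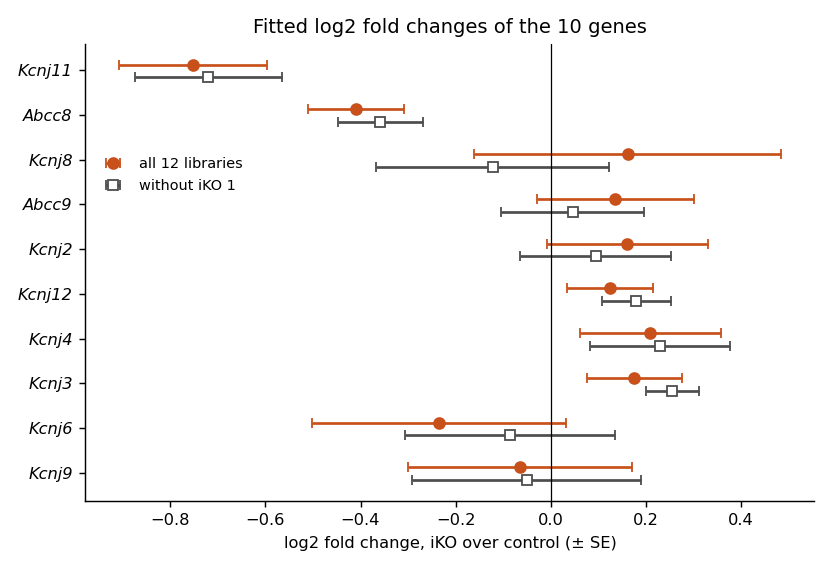
Points give the fitted log2 fold change of each gene (horizontal axis, iKO over control, bars ± SE), filled for all 12 libraries and open without iKO 1. Kcnj11 (-0.75) and Abcc8 (-0.41) lie to the left of 0 in both fits, and Kcnj8 moves from 0.16 to -0.12 when iKO 1 is left out.

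Levels per length spanned a wide range. In controls, Kcnj12 was highest at 12.4 ± 1.14 CPM per kb and Kcnj3 next at 7.26 ± 0.193, each apart from the following gene by more than the SDs. Kcnj4 (2.37 ± 0.448), Abcc8, Kcnj2 (1.65 ± 0.415) and Kcnj11 followed in that order, and each overlapped with its neighbour within 1 SD. Kcnj8 (0.666 ± 0.209), Abcc9 (0.473 ± 0.0527), Kcnj9 (0.470 ± 0.159) and Kcnj6 (0.223 ± 0.101) formed the lower end, again with overlap between neighbours. Kcnj11 and Kcnj8 differed beyond their SDs. Of the inward rectifier genes outside the set, Kcnj10, the Kir4.1 channel of satellite glia, was at 8.92 ± 1.25 CPM per kb over all 12 libraries and Kcnj16, its Kir5.1 partner, at 1.40 ± 0.236.

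**Figure D4:**
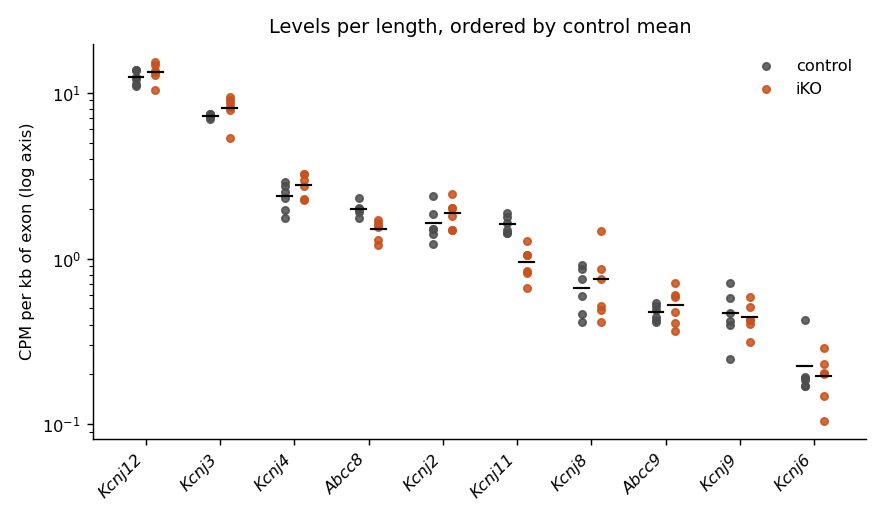
Points are libraries and short lines group means, with CPM per kb of exon on a logarithmic vertical axis and genes ordered by control mean. Kcnj12 and Kcnj3 lie above all other members, and Kcnj6 is lowest at 0.223 CPM per kb in controls.

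The comparison of the sexes did not enter the choice of the genes. Of the 10 genes, 0 were called between male and female libraries by the edgeR quasi-likelihood test (smallest adjusted p = 0.904, 0 at an unadjusted p under 0.05 and 0 by DESeq2). Of all genes 0.0549% were called (0.0305% higher and 0.0244% lower in males), and 4.11% had an unadjusted p under 0.05. Log2 differences, male over female, ran from -0.40 (Kcnj6) to 0.15 (Kcnj3), and these rested on single libraries: that of Kcnj6 was -0.05 without control 1 and that of Kcnj3 0.06 without iKO 1. The 95% interval was -0.33 to 0.34 for Kcnj11 and -0.20 to 0.24 for Abcc8, so a difference of the size seen between iKO and control lies outside the interval for each. For Kcnj8 it was wide, -0.80 to 0.60. The iKO difference was not found to depend on sex for any member (smallest adjusted p of the interaction 0.945, 0 at an unadjusted p under 0.05). The interaction test called 0 of 16384 genes (589, or 3.59%, at an unadjusted p under 0.05, and 0 by DESeq2). Kcnj11 was at 5.61 ± 0.545 CPM in female controls (n = 2) and 3.61 ± 0.439 CPM in female iKO libraries (n = 3). In males it was at 6.04 ± 0.805 (n = 4) and 3.38 ± 1.15 CPM (n = 3).

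Corn-oil and tamoxifen-injected controls were compared to describe the members without any iKO library. By edgeR's quasi-likelihood test 0 of 10 members were called (1 at an unadjusted p under 0.05), as were 0 of all 16791 genes tested (2240, or 13.3%, at an unadjusted p under 0.05, 173 called by DESeq2). DESeq2 gave an adjusted p for Kcnj3 (0.987) and Kcnj12 (0.877) only among the members. Both corn-oil controls were male and sex was a term, so the fitted difference compares them with the 2 male tamoxifen-injected controls. Kcnj9 had the largest difference, 2.76 ± 0.413 CPM with corn oil and 1.43 ± 0.516 CPM in those males (SD, n = 2 each). It was at 1.65 ± 0.409 CPM in all 4 tamoxifen-injected controls. Its log2 difference was 0.96 ± 0.33 (SE), with a 95% interval of 0.24 to 1.67 and an edgeR adjusted p of 0.271. It was 0.61 without control 3 and 1.37 without control 4. Kcnj11 differed by -0.02 ± 0.21 (SE, interval -0.48 to 0.44) and Abcc8 by 0.21 ± 0.13 (SE, interval -0.08 to 0.50). Kcnj11 was at 6.01 ± 0.741 CPM in corn-oil and 6.07 ± 1.18 CPM in male tamoxifen-injected controls (5.84 ± 0.797 CPM in all 4). Abcc8 was at 17.5 ± 1.69 and 15.1 ± 1.27 CPM (15.4 ± 0.865 CPM in all 4).

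Whether genes of partner subunits varied together across libraries was examined after the group and sex means were removed, which takes out the iKO difference. Kcnj8 and Abcc9 had a Pearson r of 0.82 (adjusted p = 0.00834) and a Spearman rho of 0.76 (adjusted p = 0.0316) over 12 libraries, by a 2-sided permutation test with 100000 resamples and adjustment over 6 pairs. Fitted anew without iKO 1, the highest library for both, r was 0.72 (adjusted p = 0.0889, permutation test). Next, the 2 libraries with Kcnj8 residuals farthest from their median were dropped after the fit on all 12. There r was 0.68 (adjusted p = 0.187, permutation test). The call thus rests on those libraries, while r stayed positive without them. Kcnj11 and Abcc8 had an r of 0.58 (adjusted p = 0.105) and a rho of 0.49 (adjusted p = 0.332) by the same permutation test, and r was 0.56 without the 2 libraries farthest from the Kcnj11 median. Its rho was 0.73 without control 3 (adjusted p = 0.043, permutation test), 0.75 without iKO 5 (adjusted p = 0.0286, permutation test) and 0.22 without iKO 4. The pairs of a pore with the other receptor had r = -0.33 for Kcnj8 with Abcc8 and 0.24 for Kcnj11 with Abcc9. For the GIRK genes r was 0.60 for Kcnj3 with Kcnj6 (-0.28 without iKO 1 and -0.05 without the 2 farthest libraries) and 0.15 for Kcnj3 with Kcnj9. These 4 pairs had adjusted p-values of 0.105 or more (permutation test). Residuals of one fit are not fully independent, so these p-values are approximate.

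**Figure D5:**
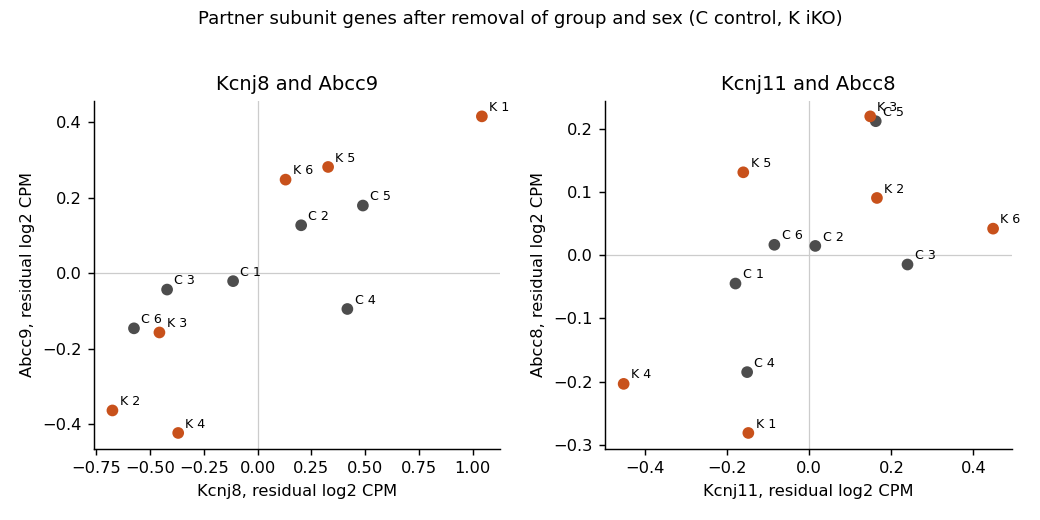
Each point is a library (C control, K iKO, with its replicate number), with residual log2 CPM of 1 subunit gene on each axis after group and sex were removed. Kcnj8 and Abcc9 rise together with iKO 1 at the upper end (r = 0.82), and Kcnj11 and Abcc8 scatter more widely (r = 0.58).

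The genes most like each member in residual level over the 12 libraries, out of 12897 named genes of at least moderate level, are given as a description. For Kcnj11 they were Sf3b4, Pcdhga7 and Nrde2 (r = 0.87 to 0.89) and for Abcc8 Tenm4, Shh and Trio (r = 0.95 for each). For Kcnj8 they were Dennd2a, Mbd2 and Imp4 (0.90 to 0.92), and for Abcc9 Tmprss5, Imp4 and Mfsd7a (0.88 to 0.92). Imp4 appeared for both Kcnj8 and Abcc9, whose residuals themselves had r = 0.82, so a shared gene adds little. With iKO 1 dropped after the fit on all 12 libraries, its r was 0.84 with Kcnj8 and 0.87 with Abcc9. Kcnj3 was closest to Eprs and Mdn1 (0.97 to 0.98), Kcnj6 to Diras2, Ccdc40 and Aff2 (0.88 to 0.89) and Kcnj9 to Pcdhgc3, Dpysl4 and Srm (0.93 to 0.94). With iKO 1 dropped in the same way, the values were 0.92 to 0.93 for Kcnj3 and 0.79 to 0.86 for Kcnj6. The removed group means still held iKO 1, so these values are not free of that library. The pair values without iKO 1 above came from a new fit and are not comparable. All these genes share libraries and depth with the members.

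Genes outside the set that act on these channels were tested in the same fit of iKO against control. Their lists were also chosen with earlier results of these data known, so calls among them are not independent evidence. Over all 16384 genes tested, 0.409% were called lower and 0.537% higher. Of 16 G protein subunit genes, 1 fell and 0 rose, with a median log2 fold change of 0.00. It was Gng2, the γ2 subunit, whose βγ dimers can open GIRK channels. Controls had 341 to 423 CPM of Gng2 and iKO libraries 233 to 281 CPM, so the groups did not overlap. The difference was -0.60 ± 0.07 on the log2 scale (SE), with an adjusted p from edgeR of 0.000553. The call held in 23 of 24 alternative analyses and was lost against the 2 corn-oil controls alone (-0.38, adjusted p = 0.564).

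Of 11 GIRK regulators 1 fell and 0 rose (median -0.08), beside the 0.409% lower and 0.537% higher of all genes. Rgs8, a GTPase activator that speeds the opening and closing of GIRK currents, was at 76.7 to 110 CPM in control and 62.4 to 75.7 CPM in iKO ganglia, again without overlap. The difference was -0.44 ± 0.08 on the log2 scale (SE), with an adjusted p from edgeR of 0.0174. Rgs8 was no longer called without control 1 (adjusted p = 0.0764, log2 fold change -0.36) or iKO 5 (0.0533, log2 fold change -0.44). It was also lost within replicates 1 to 4 (0.053, log2 fold change -0.55) and within replicates 5 and 6 (0.643, log2 fold change -0.17), and against the corn-oil controls alone (1, log2 fold change -0.23).

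The remaining lists held 0 called genes in either direction by that test. With 0.946% of all genes called, lists this short would hold few or no calls, so nothing is read from this. Of 20 Gi/o receptors that open GIRK channels, Sstr1, a somatostatin receptor, had the smallest p, at 1.81 ± 0.380 CPM in control and 0.818 ± 0.458 CPM in iKO ganglia (-1.17 ± 0.29 SE on the log2 scale, adjusted p = 0.0921). The list median was 0.05. Of 7 other inward rectifier genes 4 passed the filter, with Kcnj16 at 6.09 ± 0.813 and 4.93 ± 0.659 CPM (-0.30 ± 0.13 SE, adjusted p = 0.47), while Kcnj1, Kcnj5 (GIRK4) and Kcnj14 had 1, 11 and 97 counts over all 12 libraries. The 6 other ABCC transporters tested had a median of -0.02, with Abcc12 at -0.38 ± 0.13 (SE, adjusted p = 0.31).

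The lists of genes upstream of KATP opening also held 0 called genes, from which, at the share of 0.946% over all genes, nothing is read. The 9 genes of the nitric oxide, cGMP and protein kinase G route, which opens KATP channels in sensory neurons, had a median of -0.06, with Gucy1a1, a subunit of soluble guanylate cyclase, at -0.36 ± 0.19 (SE, adjusted p = 0.566). The 16 tested genes of ATP and glucose handling had a median of 0.05, with Prkaa2, a catalytic subunit of AMP-activated kinase, at -0.27 ± 0.09 (SE, adjusted p = 0.288). The 13 genes that supply or use PIP2, the lipid that Kir channels need to open, had a median of 0.04 (Plcd4 -0.20 ± 0.08 SE, adjusted p = 0.419). Among 14 tested genes of Kir trafficking and anchoring the median was 0.03.

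Cell markers were set beside these values. The 12 sensory neuron markers had a median log2 fold change of 0.05, with 9 positive and 3 negative. Their summed level in iKO 2 to 6 (15716 to 17332 CPM) lay within the control range of 13474 to 17700 CPM. Nefm, Nefl and Tubb3 had the largest control means (2475, 2358 and 2287 CPM), so this sum could not show loss of a subset of neurons. Kcnj11 and Abcc8 were below their control ranges in each of iKO 2 to 6. The part of neuron number in the Kcnj11 and Abcc8 values was not tested. The 10 satellite glia markers had a median of 0.00 and the 10 Schwann cell markers one of 0.24, all 10 positive. In each of the marker lists 0 genes were called, where the share over all genes was 0.946%. Skeletal muscle markers, a sign of adhering tissue, summed to 22.3 to 504 CPM in controls, against 19.9 to 112 CPM in iKO libraries, with a median log2 fold change of -0.68 over 8 genes. Kcnj11 is also expressed in skeletal muscle, and the part of muscle RNA in its values was not tested.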

How the data were processed

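RNA of 12 libraries was sequenced from non-stranded TruSeq poly(A) libraries, per the labels' protocols. The authors deposited 1 table per library with unnormalized whole counts for each gene. The submitters' processing notes name bcl2fastq 2.20.0.422, STAR 2.7.8a, featureCounts 2.0.1 and GRCm39. The annotation release and counting options were not given in the sources used here. Symbols (94.1% of identifiers), exon lengths and overlaps came from the GRCm38 GENCODE annotation.

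Counts were scaled by TMM, filtered with filterByExpr by group (16384 genes kept) and tested with edgeR 4.0.16 (R 4.3.3) by the quasi-likelihood test, robust, with group and sex as terms (9 residual degrees of freedom), Benjamini-Hochberg adjustment over all genes and a threshold of 0.05. The biological coefficient of variation was 12.8%, which with 15 or more counts per member sets the precision. CPM are counts over TMM-scaled library sizes. Corn oil was tested against tamoxifen in the 6 controls with sex as a term (3 residual degrees of freedom). Fits of iKO against the corn-oil controls alone kept sex as a term. Their group difference rests on the 3 male iKO libraries, as both controls are male. DESeq2 1.42.0 and limma 3.58.1 (voom) were alternatives. Residuals for covariation used log2 CPM with a prior count of 2.

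The members and lists were chosen with earlier results of these data known. A like gene had a mean log2 CPM of at least 1. Named genes were all members, up to 4 called genes of each list or else the one with the smallest p, and the 3 genes most like each KATP and GIRK gene; 3 genes that this rule names are not reported here.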

Additional observations from a re-analysis of the deposited data

Results flagged for a closer look

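Kcnj6, the GIRK2 gene, was at 3.27 CPM in control 1, far from the other 5 controls (1.39 ± 0.0788 CPM, SD). It was the 1 value that stood apart by Dixon's criterion among 20 sets of 6 libraries (10 genes in 2 groups), and chance marks about 1 in 20 such sets. The cause was not tested.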

How the results depend on the processing

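Kcnj11 was lower in all 24 alternatives (log2 fold change -0.89 to -0.64, called in 11) and so was Abcc8 (-0.53 to -0.34, called in 4). Signs of the uncalled Abcc9, Kcnj2, Kcnj6, Kcnj8 and Kcnj9 changed in 1, 2, 4, 2 and 5 of the 24. The main count for iKO against control was 155 genes and 1 member. It was 278 and 2 with DESeq2, 253 and 2 without the filter on low counts, 235 and 0 against tamoxifen-injected controls, 1 and 0 against corn-oil controls, 35 and 0 within replicates 1 to 4, and 82 and 0 within replicates 5 and 6. With the replicate number as a block it was 79 and 0, where Kcnj11 was at -0.75 and Abcc8 at -0.46 on the log2 scale and Rgs8 lost its call (adjusted p = 0.263 by edgeR). With the number set as a term 2 members were called, and without control 1 and iKO 1, an analysis added after seeing the data, 233 genes. Leaving out single libraries gave 92 to 364 genes and 0 to 3 members. It was 92 without control 1, 103 without control 2, 93 without iKO 5, 97 without iKO 6 and 364 without iKO 1. For the sexes the main count of 9 became 17 with DESeq2 and 16 without the filter. For the interaction, 0 became 270 without the filter and 0 to 1 on leaving out libraries. For corn oil, 0 became 173 with DESeq2, 659 without the filter and 0 to 18 on leaving out controls.

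Kcnj8 and Abcc9 had r = 0.82, which lost its call without iKO 1 and control 1 (0.72) and without the 2 libraries farthest from the median (0.68), and lay between 0.72 and 0.89 on leaving out single libraries. Kcnj11 and Abcc8 gained a call (0.86) when group and sex were not removed, which keeps the iKO difference on which the genes were selected. By rho they also gained one without control 3 (0.73) and without iKO 5 (0.75). Removing the replicate block as well gave calls for Kcnj8 with Abcc8 (-0.67) and Kcnj3 with Kcnj6 (0.90), with few residual degrees of freedom. Same-numbered libraries had correlations of -0.15 to 0.22, and 3 of 6 pairs correlated best with their own number. Counting error limits Kcnj6, Kcnj8 and Kcnj9, with 15 to 70 counts per library. The cause of these changes was not tested.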
